A study of Mus musculus with 20 samples.

Results

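The 39 genes described here are those of the cell division cycle and of DNA replication that a fixed list of symbols named, from the replicative helicase to the proteins of cell separation. The rule names symbols and uses no measured value, but the list was drawn up with earlier results of these data known. All 39 were among the 15780 genes of the count tables from mouse kidney, and 31 reached 10 counts in 5 or more libraries and were tested together with the other genes of that kind, 13990 in all. The kidneys came from 20 female NCr nude sp/sp mice, bought at 7 wk of age, in 4 groups of 5. Control mice received no engineered immune complexes (EIC) but buffer, whereas the other groups received 6 tail vein injections, every other day, of human galactose-deficient IgA1 (Gd-IgA1, 0.2 mg) complexed with a human recombinant IgG autoantibody (rIgG, 0.1 mg). By daily gavage over 11 days the Control and EIC mice were given vehicle, whereas EIC + S60 mice were given sparsentan, an antagonist of the ETA receptor of endothelin and the AT1 receptor of angiotensin II, at a dose of 60 mg/kg and EIC + S120 mice the same drug at 120 mg/kg. Kidneys for RNA were collected on day 12. Nude mice lack a thymus and hence most T cells, and the complexes are human proteins, so the groups model deposition of foreign complexes in an immunodeficient host. The study stained glomeruli for Ki-67 to count proliferating cells. The counts here ask whether the transcripts of the same machinery differed between the groups in whole-kidney poly(A) RNA, of which glomeruli are a small part.

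A dividing cell first loads the MCM2-7 helicase onto origins with the help of Cdt1, then copies its DNA with the sliding clamp PCNA and with nucleotides made by ribonucleotide reductase and thymidylate synthase. Cyclins A and B with Cdk1 then drive mitosis, the anaphase-promoting complex ends it, and a midzone of microtubules guides cell separation. Most cells of the adult kidney are out of cycle, and renewal of tubule, glomerular and resident immune cells is slow at rest. E2F factors activate many of the replication genes in late G1, whereas mitotic genes are repressed in G1 by the DREAM complex through a cell cycle homology region (CHR) and activated in G2 through CCAAT boxes.

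Promoters of 4 of these genes are printed because the values below turn on them, Mcm2 and Mcm5 for the helicase and Mki67 and Top2a for dividing cells. Each line gives the 250 bases before the transcription start, 5′ to 3′ on the gene's strand, from RefSeq on GRCm38.p6, with motif matches in capitals. The motifs searched were CHR (TTTGAA or TTCGAA), the CCAAT box (CCAAT) and E2F (TTCCCGCC, TTTGGCGC or TTTCCCGC), on both strands, so that CCAAT also appears as ATTGG. The windows lie at chr6:88898781-88899030 (minus strand) for Mcm2, chr8:75109259-75109508 (plus strand) for Mcm5, chr7:135716380-135716629 (minus strand) for Mki67 and chr11:99024190-99024439 (minus strand) for Top2a.
Mcm2: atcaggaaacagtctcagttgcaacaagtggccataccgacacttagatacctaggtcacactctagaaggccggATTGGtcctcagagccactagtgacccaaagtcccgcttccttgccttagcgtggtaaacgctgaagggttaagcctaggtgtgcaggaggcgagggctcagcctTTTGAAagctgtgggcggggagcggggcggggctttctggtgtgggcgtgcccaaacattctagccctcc
Mcm5: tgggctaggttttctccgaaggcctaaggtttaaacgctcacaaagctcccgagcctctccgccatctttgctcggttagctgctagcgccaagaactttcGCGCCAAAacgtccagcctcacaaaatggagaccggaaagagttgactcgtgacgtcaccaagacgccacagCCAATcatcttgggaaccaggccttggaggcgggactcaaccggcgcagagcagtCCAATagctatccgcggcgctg
Mki67: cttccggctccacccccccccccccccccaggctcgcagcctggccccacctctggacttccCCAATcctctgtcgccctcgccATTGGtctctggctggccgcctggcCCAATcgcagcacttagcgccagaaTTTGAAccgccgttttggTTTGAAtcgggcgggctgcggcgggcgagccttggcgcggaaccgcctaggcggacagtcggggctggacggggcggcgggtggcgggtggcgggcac
Top2a: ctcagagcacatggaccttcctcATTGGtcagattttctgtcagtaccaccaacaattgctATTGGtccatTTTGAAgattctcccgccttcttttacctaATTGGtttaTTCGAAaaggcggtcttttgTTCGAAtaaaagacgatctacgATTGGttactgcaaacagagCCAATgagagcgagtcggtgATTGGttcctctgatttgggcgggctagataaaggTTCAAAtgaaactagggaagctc
Mcm2 held 1 CHR match and 1 CCAAT box, Mcm5 held 2 CCAAT boxes and 1 E2F match, Mki67 held 2 CHR matches and 3 CCAAT boxes, and Top2a held 4 CHR matches and 6 CCAAT boxes. Windows were found for 34 of the 39 genes, 38 windows in all because some genes have several starts. Of these 38 windows 32 (84.2%) held a CCAAT box, against 33.8% of all 32851 windows. A CHR match stood in 13 (34.2%), against 17.1% of all windows, and an E2F match in 6 (15.8%), against 2.69%. All 6 windows with an E2F match belonged to the 14 windows of replication genes, whereas 11 of the 13 windows with a CHR match belonged to the 24 windows of mitotic genes. These are matches of letters and no sign of binding in these kidneys.

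The libraries held 12662345 to 38651781 counts, and Control 651 and Control 652 were the deepest. No pair of libraries within a group agreed within sampling noise (chi-square per gene 6.58 to 74.5), so each mouse was counted as 1 sample. Defining transcripts of proximal tubule (Lrp2, 1173 to 2649 CPM) and thick ascending limb (Umod, 1996 to 5750 CPM) were present in all 20 libraries, where CPM is counts-per-million after TMM scaling of library sizes. Values below are CPM, and a log2 fold change (LFC) is of the first group over the second, with its standard error (SE) from limma.

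Levels per transcript length ranged widely among the 39 genes. Cks2, a small subunit of cyclin-dependent kinases, had the highest mean over the 20 mice (25.0 RPKM, that is CPM per kilobase of exon), followed by Pcna (16.2 RPKM) and Mcm6 (4.76 RPKM). At the low end, Bub1, a kinase of the spindle checkpoint, stood at 0.0141 RPKM and had 0 to 5 counts in a library, with 0 counts in 8 libraries. The licensing and helicase genes lay between 1.17 and 4.76 RPKM, whereas the 8 chromosome and spindle genes lay between 0.0222 and 0.249 RPKM. Cks2 and Ect2, a guanine nucleotide exchange factor for RhoA in cytokinesis, were the highest of the mitotic genes, and the other mitotic genes together summed to 13.6 to 26.5 CPM in a mouse. The 8 genes below the filter were all mitotic, namely Ccnb2, Aurkb, Plk1, Bub1, Birc5, Cenpf, Kif23 and Prc1. None of these 8 reached 10 counts in more than 3 of the 20 libraries. In a fit with no filter on low counts, none passed 0.05 after adjustment in any comparison. Their LFCs lay between −2.90 (Bub1, EIC + S120 vs. EIC) and 1.39 (Aurkb, EIC vs. Control). Without adjustment both of these passed 0.05, as did Ccnb2 vs. Control in EIC (LFC −1.19) and in EIC + S120 (LFC −1.40). Bub1 had 0 to 1 counts in EIC + S120 mice and 2 to 4 in EIC mice, so that fold is uncertain. Genes such as Ccnb1 and Bub1b reached 10 counts in exactly 5 libraries, so that passing the filter depended on the libraries where they were highest.

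No tested gene of the list was called in EIC vs. Control at an adjusted p under 0.05 (edgeR quasi-likelihood test, Benjamini-Hochberg adjustment over all genes tested), where 2.97% of all genes tested were called. Without adjustment, 3 of 31 had a p under 0.05, namely Pcna and Top2a, higher with EIC, and Cks2, lower, against 16.8% of all genes. LFCs were positive for 15 and negative for 16 of the 31, with a median of −0.02, beside 52.4% negative and a median of −0.01 over all genes tested. In EIC + S60 vs. EIC none was called, as none of all 13990 genes was (0%), and 3 had an unadjusted p under 0.05 (6.05% of all genes). There 22 of the 31 LFCs were negative (50.6% of all genes), with a median of −0.07. Without EIC 67 14 of 30 were negative, and over the fits without 1 library the median spanned −0.13 (without EIC 68) to 0.01 (without EIC 67). None was called between EIC + S120 and EIC either, beside 0.0572% of all genes. All 7 genes with an unadjusted p under 0.05 were lower there with sparsentan (Mcm2, Mcm3, Mcm5, Mcm6, Uhrf1, Mki67 and Top2a), where 4.27% of all genes were lower at that level. Of the 31 LFCs, 24 were negative with a median of −0.27, beside 49.5% negative and a median of 0.00 over all genes. That median was −0.15 over the 26 genes with 10 counts in 15 libraries, −0.16 without both deepest Control libraries or without Control 651 alone, −0.15 without Control 652 (29 genes each) and −0.13 without EIC 67 (30 genes). In the other direction, it was −0.36 without EIC + S120 77, −0.31 without EIC 68 and −0.29 without EIC + S120 80. Leaving out Control 651 or 652 changed which genes passed the filter, not the mice compared here.

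A single gene, Mcm2, was called between EIC + S120 and Control and was lower in EIC + S120, where 5.55% of all genes were called. A further 7 genes had an unadjusted p under 0.05, all lower, and with Mcm2 these 8 were all replication genes (Mcm2, Mcm3, Mcm6, Mcm7, Cdt1, Rrm1, Rrm2 and Hells), where 10.1% of all genes were lower at that level. LFCs were negative for 25 of the 31 (53.2% of all genes), with a median of −0.20. In EIC + S60 vs. Control none was called (1.29% of all genes), 5 had an unadjusted p under 0.05, all lower (6.47% of all genes lower at that level), and 20 of 31 LFCs were negative (52.7% of all genes). Between the 2 doses none was called (0.0643% of all genes), 3 had an unadjusted p under 0.05, Mki67, Top2a and Cdt1, all lower at the higher dose (4.05% of all genes), and 20 of 31 LFCs of EIC + S120 vs. EIC + S60 were negative (49.8% of all genes). The test of any difference among the 4 groups called none (3.55% of all genes), with 10 at an unadjusted p under 0.05 (17.3% of all genes). Comparisons with Control share the Control libraries and those with EIC share the EIC libraries, so they are not independent of each other. No group received sparsentan without EIC, so the sparsentan groups differ from Control in both the injections and the drug. In whole-kidney RNA, fewer cells in cycle and less RNA per cell cannot be told apart.

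**Figure D1:**
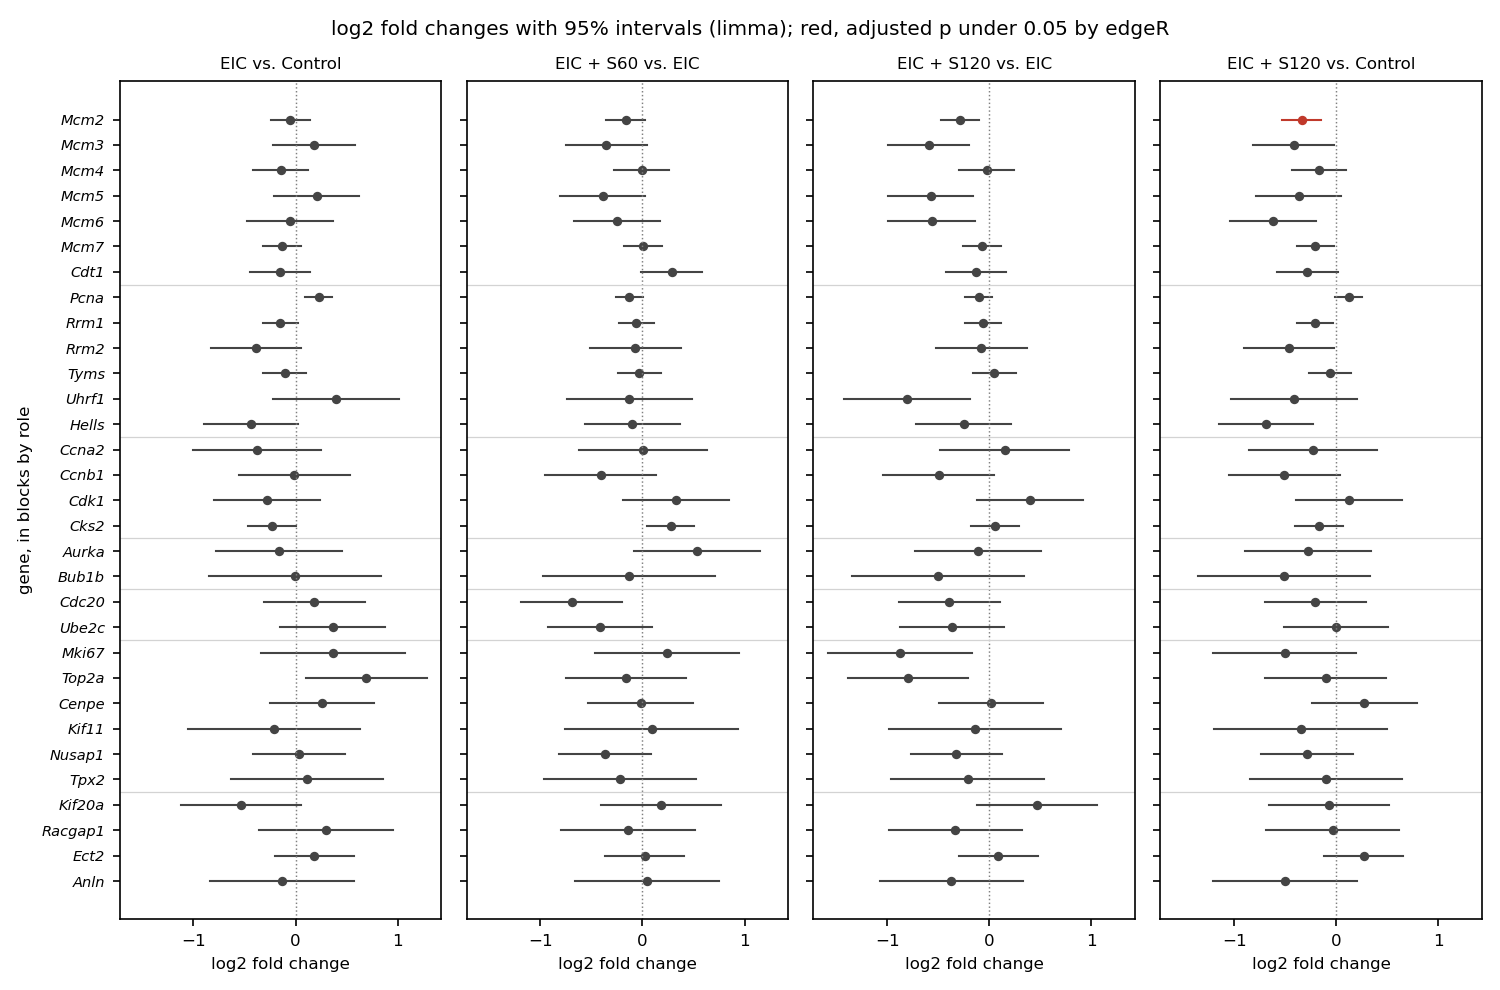
LFC of each of the 31 tested genes (x axis, log2, limma estimate with its 95% interval) in 4 comparisons, in blocks by role. The interval of Mcm2 in EIC + S120 vs. Control is drawn in red as the 1 call, and most of the other intervals include 0, with a median half-width of 0.49.

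The precision differed between the 2 ends of the list. The 95% interval of an LFC had a median half-width of 0.49 over the 31 genes, against 0.23 over all genes tested. For the helicase and licensing genes it was 0.30, and for the chromosome and spindle genes 0.65, so differences of the size seen for Mcm2 could not have been resolved for most mitotic genes.

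All 6 genes of the MCM2-7 helicase had negative LFCs in EIC + S120 vs. Control, vs. EIC and vs. EIC + S60, and 5 of 6 in EIC + S60 vs. EIC. Summed over the 6 subunits, levels were 74.5 ± 3.70 CPM in Control mice, 72.4 ± 7.71 in EIC mice, 65.4 ± 9.50 in EIC + S60 mice, and 57.6 ± 4.53 in EIC + S120 mice (mean ± SD, n = 5). The sums of the single mice spanned 70.7 to 80.4 CPM in Control mice, 65.1 to 85.3 in EIC mice, 52.1 to 74.6 in EIC + S60 mice, and 52.0 to 63.0 in EIC + S120 mice. All EIC + S120 mice lay below every Control and every EIC mouse in this sum, whereas EIC + S60 overlapped with each of the other groups. The sum weighs Mcm6 most, which averaged 25.6 CPM in Control, 24.6 in EIC and 17.0 in EIC + S120 mice. Mcm6 was also the only 1 of the 6 subunits lower without overlap in EIC + S120 vs. EIC, where 0.550% of all genes were. The sum therefore does not show a separation from EIC for each subunit. Markers of several other cell types were also lower in EIC + S120 vs. EIC. LFCs were negative for 10 of 10 macrophage and monocyte markers (8 at an unadjusted p under 0.05, median −0.90), 5 of 5 of collecting duct (1 at that level, median −0.31) and 5 of 5 of thick ascending limb and distal tubule (2 at that level, median −0.39), and none was called. They were also negative for 7 of 7 red cell precursor markers (median −0.47) and for 5 of 6 each of podocytes (median −0.11) and endothelium (median −0.07). By contrast, 4 of 6 proximal tubule markers (median 0.15) and 3 of 7 mesangial and mural markers (median −0.01, 1 called higher) were positive. Against Control, 1 of 5 collecting duct and 1 of 7 red cell precursor markers were called lower, where 5.55% of all genes were called. Their part in the helicase levels was not tested.

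Mcm2, a subunit of the helicase and a common marker of cells licensed to divide, was at 11.2, 11.1, 13.2, 11.4 and 12.5 CPM in the Control mice 651 to 655. In EIC mice 65 to 69 it was at 9.51, 13.8, 12.1, 11.2 and 10.9 CPM, in EIC + S60 mice 71 to 75 at 11.2, 9.99, 10.1, 9.52 and 10.3 CPM, and in EIC + S120 mice 77 to 81 at 8.95, 10.2, 8.62, 9.27 and 9.71 CPM. Every EIC + S120 mouse was below every Control mouse, whereas EIC covered a range that overlapped with all groups. The LFC of EIC + S120 vs. Control was −0.34 (SE 0.09, adjusted p = 0.0337), 21.0% lower. Against EIC it was −0.30 (SE 0.09, adjusted p = 0.350), and in EIC vs. Control −0.04 (adjusted p = 0.868). The call against Control was lost when any 1 of Control 653, 654 or 655 or of EIC + S120 77, 79, 80 or 81 was left out, with LFCs of −0.35 to −0.30. It was also lost with only the 10 libraries compared in the fit (LFC −0.34) and after thinning all libraries to the shallowest (LFC −0.29).

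Mcm3 and Mcm5, which sit side by side in the helicase ring, were lowest on average in EIC + S120 too. Mcm3 was at 4.58, 4.39, 4.60, 6.39 and 3.40 CPM in Control mice, 4.15, 4.07, 8.41, 6.20 and 4.31 in EIC mice, 4.91, 3.75, 4.19, 3.99 and 3.54 in EIC + S60 mice, and 4.44, 3.51, 3.30, 2.77 and 3.22 in EIC + S120 mice, in the order of mouse numbers above. For Mcm3 1 EIC + S120 mouse, 77, reached into the EIC range, and the other 4 were below every EIC mouse. The LFC of EIC + S120 over EIC was −0.65 (SE 0.19, adjusted p = 0.350) and −0.41 in EIC + S60 vs. EIC (SE 0.19, adjusted p = 0.815). Without EIC 67 these were −0.44 and −0.20. Mcm5 was at 3.99, 4.94, 6.28, 4.76 and 4.95 CPM in Control mice, 4.25, 5.29, 9.04, 5.44 and 5.47 in EIC mice, 5.18, 4.73, 5.76, 3.67 and 2.94 in EIC + S60 mice, and 3.67, 2.92, 3.97, 5.17 and 3.57 in EIC + S120 mice. All groups overlapped for Mcm5, and EIC 67 stood far above the other EIC mice. The LFC of EIC + S120 over EIC was −0.61 (SE 0.20, adjusted p = 0.406), and without EIC 67 it was −0.40.

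Mcm6, the most abundant subunit, was also lowest on average in EIC + S120. It was at 23.9, 30.1, 26.3, 23.7 and 24.0 CPM in Control and 26.8, 22.9, 27.0, 22.9 and 23.5 in EIC mice, then 25.5, 28.0, 25.8, 17.7 and 11.4 in EIC + S60 mice and 15.8, 12.1, 14.0, 21.9 and 21.1 in EIC + S120 mice. In EIC + S60, mice 74 and 75 lay below all Control and EIC mice while the other 3 did not, and all 5 EIC + S120 mice lay below all Control and EIC mice. LFCs were −0.60 in EIC + S120 vs. Control (SE 0.20, adjusted p = 0.0857) and, relative to EIC, −0.54 (SE 0.20, adjusted p = 0.451, with 0.550% of all genes lower without overlap). Mcm7 was also lower in every EIC + S120 mouse (14.2 to 16.3 CPM) than in every Control mouse (16.8 to 18.7), with an LFC of −0.20 (adjusted p = 0.197). Of the exon length of Mcm7, 8.70% is overlapped by genes on the other strand and 3.89% by genes on the same strand. Mcm4 overlapped between all groups (6.51 to 12.3 CPM over the 20 mice). Thus 3 of the 6 subunits, Mcm2, Mcm6 and Mcm7, did not overlap between EIC + S120 and Control, where 3.02% of all genes tested were lower without overlap. LFCs of all 6 were negative in both sparsentan groups vs. Control, and 4 of 6 were negative in EIC vs. Control. Cdt1, which loads the helicase, was at 6.24 to 7.01 CPM in EIC + S60, above every EIC mouse (4.57 to 6.04) with an LFC of 0.28 (adjusted p = 0.821), where 0.500% of all genes were higher without overlap, and at 4.10 to 6.36 CPM in EIC + S120.

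**Figure D2:**
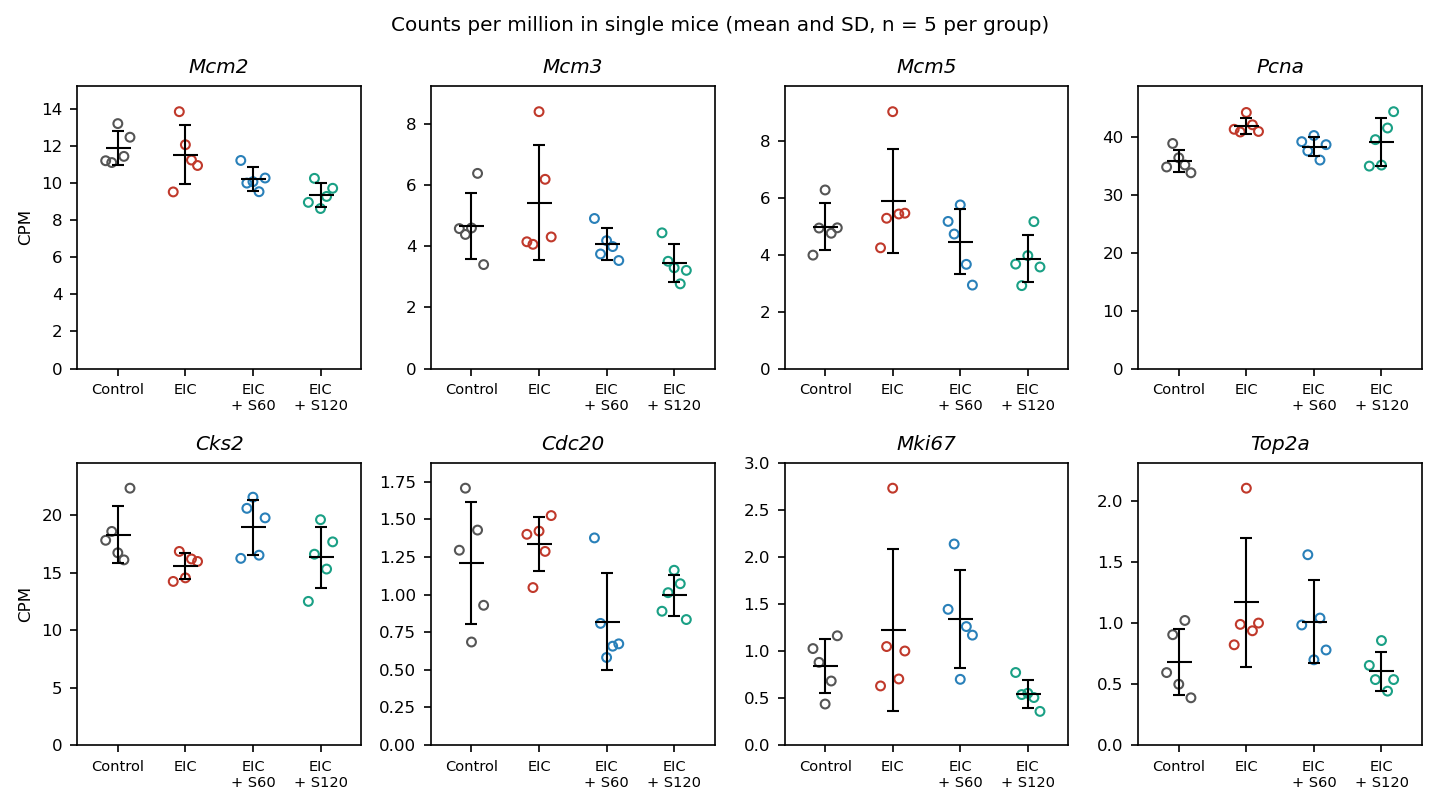
CPM (y axis, linear, from 0) of 8 genes in each mouse by group, with the mean and SD (n = 5). Mcm2 is below every Control mouse in all 5 EIC + S120 mice, Pcna is above every Control mouse in all 5 EIC mice, and for Mcm5, Mki67 and Top2a 1 EIC mouse, EIC 67, stands apart at 9.04, 2.73 and 2.10 CPM.

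Pcna, the clamp that holds DNA polymerase on its template, was highest on average in EIC. It was at 34.8, 38.9, 36.4, 35.2 and 33.8 CPM in Control mice, 41.3, 40.9, 44.2, 42.1 and 41.0 in EIC mice, 39.2, 37.6, 40.2, 36.0 and 38.7 in EIC + S60 mice, and 35.0, 39.5, 35.1, 41.5 and 44.4 in EIC + S120 mice. Every EIC mouse was above every Control mouse and above every EIC + S60 mouse, while EIC + S120 covered both ranges. The LFC of EIC vs. Control was 0.22 (SE 0.06, adjusted p = 0.0552), 16.8% higher, where 1.98% of all genes were higher without overlap. This value lay just above the threshold. It passed with RLE scaling, with DESeq2, with a filter of 10 counts in 15 libraries, and when any 1 of Control 652, EIC 66, EIC + S60 73 or 74, or EIC + S120 77, 79, 80 or 81 was left out, with LFCs of 0.22 to 0.26. In EIC + S60 vs. EIC the LFC was −0.13 (SE 0.06, adjusted p = 0.815), where 0.386% of all genes were lower without overlap. Reads of Pcna-ps1 and Pcna-ps2, processed copies of the gene, may have been shared with Pcna or lost in the counting, so its counts are uncertain, as are those of Tyms, Ccnb1 and Ccnb2, which have a copy each.

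The genes of nucleotide supply were not called in any comparison. Rrm1, the large subunit of ribonucleotide reductase, averaged 25.6 ± 3.06 CPM in Control mice, 23.1 ± 2.72 in EIC mice, 22.0 ± 1.00 in EIC + S60 mice, and 22.0 ± 1.47 in EIC + S120 mice. Rrm2, its S-phase subunit, averaged 3.35 ± 1.05 CPM in Control and 2.33 to 2.49 CPM in the groups that received EIC, with LFCs vs. Control of −0.42 in EIC (adjusted p = 0.342), −0.49 in EIC + S60 (adjusted p = 0.346) and −0.52 in EIC + S120 (adjusted p = 0.189). Without adjustment, Rrm1 and Rrm2 had a p under 0.05 in both sparsentan groups vs. Control (0.0200 and 0.0349 in EIC + S60, 0.0197 and 0.0294 in EIC + S120). Tyms, thymidylate synthase, averaged 16.1 to 17.7 CPM in the 4 groups. Of the chromatin copying genes, Hells, a helicase-like factor needed for DNA methylation, was at 1.91, 1.83, 2.18, 1.84 and 1.47 CPM in Control and at 1.42, 0.893, 1.41, 1.07 and 0.834 in EIC + S120. Hells did not overlap between these 2 groups, where 3.02% of all genes were lower without overlap, and its LFC was −0.72 (SE 0.22, adjusted p = 0.0853). It was at 0.999 to 1.74 CPM in EIC and 0.866 to 1.98 in EIC + S60. Uhrf1, which brings the maintenance methyltransferase to new DNA, was at 3.41 CPM in EIC 67 and 1.10 to 1.81 in the other EIC mice. It was at 0.630 to 1.66 CPM in EIC + S120, with an LFC vs. EIC of −0.86 (SE 0.30, adjusted p = 0.451) and overlapping groups.

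Among the mitotic cyclins and their kinase, Cks2 was the only one at more than 2 CPM in these kidneys. It was at 17.8, 18.6, 16.7, 16.1 and 22.4 CPM in Control mice, 14.2, 16.9, 14.6, 16.2 and 16.0 in EIC mice, 16.3, 20.6, 21.6, 16.5 and 19.8 in EIC + S60 mice, and 12.5, 16.6, 19.6, 15.3 and 17.7 in EIC + S120 mice. The groups overlapped, with 3 of 5 EIC mice below every Control mouse. LFCs were −0.23 in EIC vs. Control (SE 0.11, adjusted p = 0.293) and 0.29 in EIC + S60 vs. EIC (SE 0.11, adjusted p = 0.755). Ccna2, cyclin A2, and Cdk1, the kinase of mitotic entry, averaged 0.798 to 1.06 CPM and 0.581 to 0.807 CPM in the groups, and Ccnb1, cyclin B1, 0.325 to 0.500 CPM. LFCs of these cyclins and Cdk1 lay between −0.62 and 0.47 in the 6 comparisons, and none passed the test. Exons of Ccna2 are overlapped over 12.5% of their length by Exosc9 on the other strand, and whether the counting used strand is not given in the sources used here.

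Of the mitotic and checkpoint kinases, Aurka, which matures the spindle poles, averaged 1.05 ± 0.287 CPM in Control mice, 0.983 ± 0.424 in EIC mice, 1.38 ± 0.303 in EIC + S60 mice, and 0.890 ± 0.396 in EIC + S120 mice. Bub1b, a spindle checkpoint protein, averaged 0.216 to 0.361 CPM. Neither passed in any comparison. Plk1, Aurkb and Bub1 were below the filter, with group means of 0.183 to 0.397, 0.0818 to 0.288 and 0.0119 to 0.133 CPM.

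Cdc20, which activates the anaphase-promoting complex, had the smallest p of the list in EIC + S60 vs. EIC. It was at 1.29, 1.71, 0.684, 1.43 and 0.928 CPM in Control mice, 1.40, 1.05, 1.42, 1.29 and 1.52 in EIC mice, 1.38, 0.808, 0.582, 0.657 and 0.672 in EIC + S60 mice, and 0.889, 1.01, 1.16, 1.07 and 0.834 in EIC + S120 mice. In EIC + S60, 4 of 5 mice were below every EIC mouse, and mouse 71 lay within the EIC range. The LFC was −0.72 (SE 0.24, adjusted p = 0.738), with a 95% interval of −1.19 to −0.20 by limma. Ube2c, the ubiquitin-conjugating enzyme of the complex, averaged 2.04 to 2.83 CPM with overlapping groups. Exons of Ube2c are overlapped over 22.8% of their length by Tnnc2 on the other strand.

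Mki67, which encodes the Ki-67 antigen of cycling cells, was low in whole-kidney RNA. It was at 1.02, 0.878, 0.436, 0.680 and 1.16 CPM in Control mice, 0.628, 1.05, 2.73, 0.702 and 0.999 in EIC mice, 1.44, 2.14, 0.698, 1.26 and 1.17 in EIC + S60 mice, and 0.770, 0.536, 0.550, 0.504 and 0.357 in EIC + S120 mice, or 6 to 48 counts in a library. EIC mice other than 67 lay within the Control range, and EIC + S120 mice were in the lower part of that range or, in mouse 81, below it. The LFC of EIC vs. Control was 0.52 (SE 0.34, adjusted p = 0.518), with a 95% interval of −0.34 to 1.07 by limma, and without EIC 67 it was −0.0054. The higher dose gave −1.15 vs. EIC (SE 0.34, adjusted p = 0.415), and without EIC 67 it was −0.62. Between the doses it was −1.29 for EIC + S120 vs. EIC + S60 (SE 0.34, adjusted p = 0.300), with a value of 0.770 CPM in mouse 77 above the lowest EIC + S60 mouse. The lower dose went the other way, with LFCs of 0.14 vs. EIC (adjusted p = 0.976, and 0.66 without EIC 67) and 0.66 vs. Control (adjusted p = 0.486). None of the differences in Mki67 passed the test.

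Top2a, the topoisomerase that untangles chromosomes before mitosis, was, like Mki67, lowest on average in EIC + S120. It was at 0.593, 0.903, 0.498, 1.02 and 0.387 CPM in Control mice, 0.821, 0.988, 2.10, 0.936 and 0.999 in EIC mice, 0.983, 1.56, 0.698, 1.04 and 0.778 in EIC + S60 mice, and 0.652, 0.536, 0.856, 0.441 and 0.536 in EIC + S120 mice. In EIC 67 it was more than 1 CPM above every other EIC mouse, and 4 of 5 EIC + S120 mice were below every EIC mouse. The LFC was 0.75 in EIC vs. Control (SE 0.28, adjusted p = 0.224), and 0.43 without EIC 67. For EIC + S120 mice relative to EIC mice it was −0.94 (SE 0.28, adjusted p = 0.413), and −0.62 without EIC 67. The other tested chromosome and spindle genes, Cenpe, a kinesin of the kinetochore, Kif11, the motor that parts spindle poles, and Nusap1 and Tpx2, which bind spindle microtubules, averaged 0.494 to 1.13 CPM in the groups and did not pass in any comparison.

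Ect2 stood at 8.83 to 21.5 CPM in the 20 mice, with group means of 12.4 ± 2.55 CPM in Control mice, 14.2 ± 4.01 in EIC mice, 14.1 ± 1.93 in EIC + S60 mice, and 15.01 ± 3.92 in EIC + S120 mice. Racgap1, a subunit of the centralspindlin complex, averaged 2.19 to 2.74 CPM, and Anln, the scaffold of the contractile ring, 0.473 to 0.685 CPM. Kif20a, a kinesin of the midzone, averaged 0.762 to 1.16 CPM, and 29.3% of its exon length is overlapped by Cdc23 on the other strand. None of these 4 genes passed in any comparison, and their groups overlapped in all of them.

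**Figure D3:**
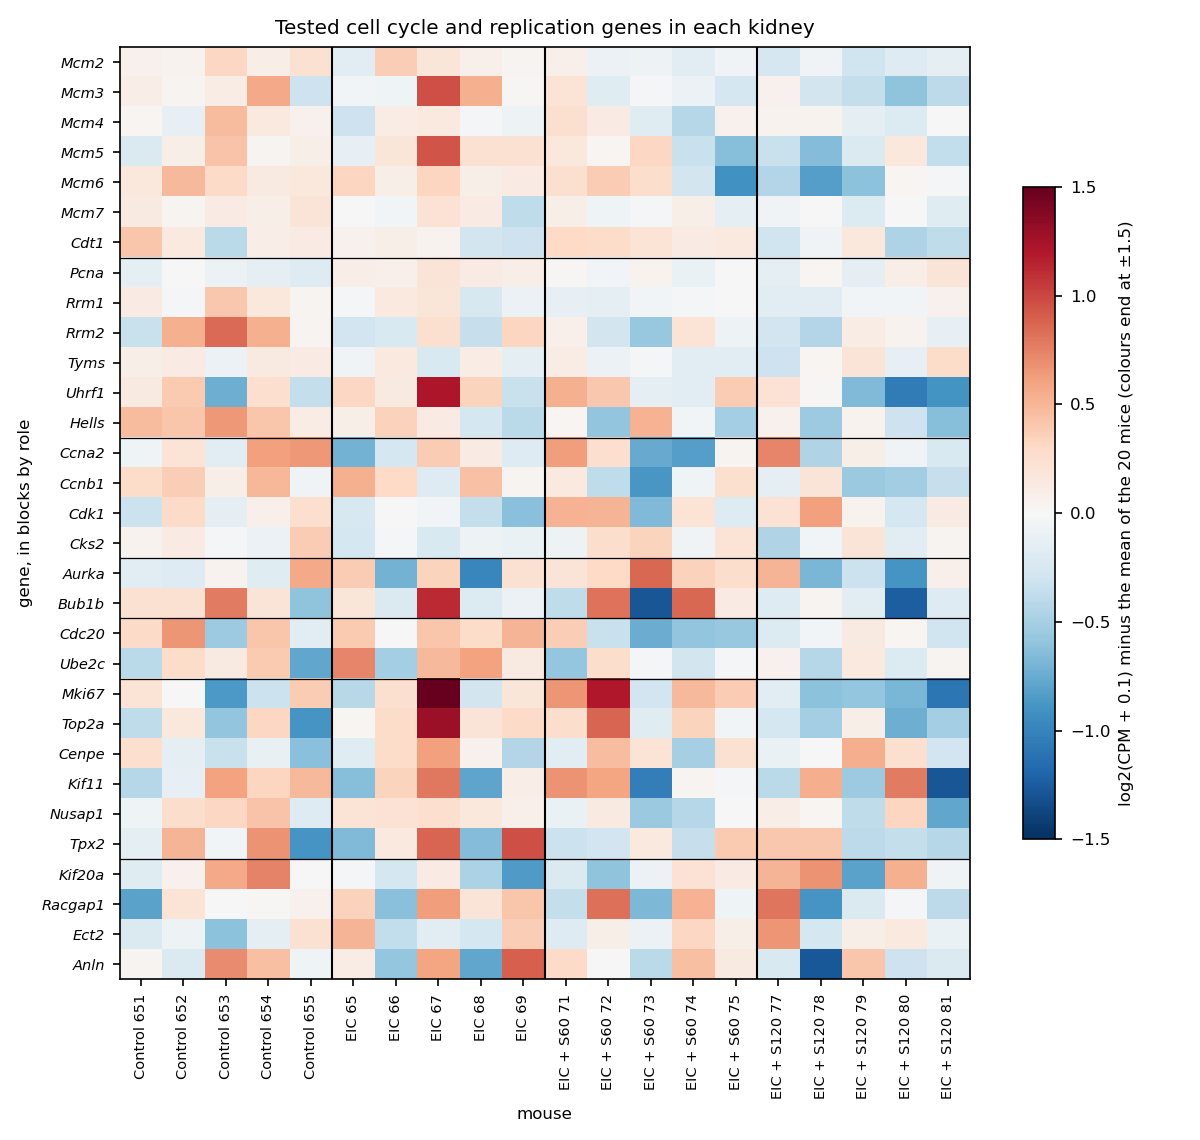
Deviation of log2(CPM + 0.1) from the mean of the 20 mice for each tested gene (rows, in blocks by role) in each mouse (columns, by group), with colours ending at 1.5 in both directions. EIC 67 is the highest EIC mouse for 17 of the 31 genes, and the rows of the helicase genes are mostly below their mean in EIC + S120.

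EIC 67 stood apart within its group. It was the highest of the 5 EIC mice for 17 of the 31 tested genes (54.8%), where it was the highest for 20.3% of all genes tested. The same library had the highest summed level of 10 macrophage and monocyte markers, 270 CPM, against 102 to 181 CPM in the other EIC mice. In the other groups that sum spanned 82.3 to 105 CPM in Control, 87.2 to 138 in EIC + S60 and 88.2 to 125 in EIC + S120. All 10 of these markers were listed and tested, and 5 of 10 were called higher in EIC vs. Control (1.61% of all genes). Among them were Adgre1, which encodes F4/80 (LFC 1.73, SE 0.31, adjusted p = 0.00586), and the complement subunit C1qa made by macrophages (LFC 1.46, SE 0.25, adjusted p = 0.00437). The summed level of 3 listed T and NK cell markers was 3.13 CPM in EIC 67 and at most 1.34 CPM in the mice of the other groups. EIC 67 was also the highest EIC mouse for markers of collecting duct (828 CPM), B and plasma cells (3.30 CPM) and neutrophils (1.59 CPM). For podocyte, mesangial and mural, endothelium and red cell precursor markers EIC 68 was the highest. The part of these cells in the levels of the cell cycle genes was not tested. Without EIC 67 the median LFC of the tested genes was −0.06 for EIC vs. Control, 0.01 for EIC + S60 vs. EIC and −0.13 for EIC + S120 vs. EIC, and no gene was called in these comparisons. Marker sums of mesangial and mural cells, 219 to 410 CPM in Control and EIC mice and 552 to 995 CPM in the sparsentan groups, include Ren1 and were not read as a number of cells.

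The wider cell cycle network was read from 4 further lists with 137 genes. Of all genes tested, 2.97% were called in EIC vs. Control, 1.29% in EIC + S60 vs. Control and 5.55% in EIC + S120 vs. Control. Of 18 G1 cyclins, kinases and E2F factors, 16 were tested, of which 2 were called in EIC vs. Control, 1 higher and 1 lower, 2 in EIC + S60 vs. Control, 1 higher and 1 lower, and 1, lower, in EIC + S120 vs. Control. Of 23 inhibitors and brakes, 19 were tested, and 1 was called higher in EIC vs. Control, 1 higher and 1 lower in EIC + S60 vs. Control and 1 higher and 1 lower in EIC + S120 vs. Control. Of 46 other mitotic genes, 23 were tested and 1 was called, lower in EIC + S120 vs. Control, and of 50 other replication genes, 44 were tested and none was called. Without adjustment, 3 of these 44 had a p under 0.05 in EIC vs. Control (16.8% of all genes), 4 in EIC + S60 vs. Control, 1 of them lower (6.47% of all genes lower), 6 in EIC + S120 vs. Control, 4 of them lower (10.1%), and 7 in EIC + S120 vs. EIC, 6 of them lower (4.27%). In EIC + S60 vs. EIC, EIC + S120 vs. EIC and EIC + S120 vs. EIC + S60, no gene of the 4 lists was called. The median LFC of the other replication genes was 0.05 in EIC vs. Control, with 12 of 44 negative (52.4% of all genes). It was −0.14 in EIC + S120 vs. EIC, with 34 of 44 negative (49.5% of all genes). Tk1 had their smallest p in EIC vs. Control (LFC 0.52, SE 0.17, adjusted p = 0.0969). Every EIC mouse was above every Control mouse for Tk1, where 1.98% of all genes were higher without overlap. In EIC + S120 vs. EIC the smallest p was that of Tipin (LFC −0.24, SE 0.10, adjusted p = 0.507).

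Ccnd1, cyclin D1, which starts the passage through G1, was at 523, 435, 263, 350 and 303 CPM in Control mice, 227, 275, 260, 189 and 245 in EIC mice, 219, 178, 220, 188 and 202 in EIC + S60 mice, and 169, 173, 132, 159 and 138 in EIC + S120 mice. All mice of both sparsentan groups were below every Control mouse (1.74% of all genes lower without overlap in EIC + S60 and 3.02% in EIC + S120), and 1 EIC mouse, 66, reached above the lowest Control mouse. LFCs were −0.65 in EIC vs. Control (SE 0.15, adjusted p = 0.0201), −0.90 in EIC + S60 vs. Control (SE 0.15, adjusted p = 0.00234) and −1.28 in EIC + S120 vs. Control (SE 0.15, adjusted p = 2.24e-05). Control 651 and 652, the deepest libraries, held the highest values, and the call in EIC vs. Control was lost without both (LFC −0.34), without 651 (−0.49), without 652 (−0.59), without EIC 68 (−0.57) and with only the 10 libraries compared in the fit (−0.65). The calls of the sparsentan groups vs. Control held in all 28 alternatives. Every EIC + S120 mouse was below every EIC mouse as well (0.550% of all genes), with an LFC of −0.63 that did not pass (SE 0.15, adjusted p = 0.201).

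Wee1, the kinase that holds Cdk1 inactive before mitosis, was called higher vs. Control in all 3 groups that received EIC. It was at 25.6, 26.3, 23.3, 24.5 and 19.9 CPM in Control mice, 37.9, 47.5, 35.9, 41.3 and 41.7 in EIC mice, 39.0, 33.4, 37.7, 41.8 and 35.0 in EIC + S60 mice, and 40.6, 42.9, 39.2, 56.0 and 47.2 in EIC + S120 mice. LFCs vs. Control were 0.77 in EIC (SE 0.10, adjusted p = 0.000123), 0.64 in EIC + S60 (SE 0.10, adjusted p = 0.0012) and 0.91 in EIC + S120 (SE 0.10, adjusted p = 7.34e-06), and each call held in all 28 alternatives. Every mouse that received EIC was above every Control mouse, where 1.98%, 2.07% and 2.79% of all genes were higher without overlap in EIC, EIC + S60 and EIC + S120 vs. Control. Against EIC, LFCs went in opposite directions, −0.13 in EIC + S60 (adjusted p = 0.863) and 0.14 in EIC + S120 (adjusted p = 0.715), and EIC + S120 vs. EIC + S60 gave 0.27 (adjusted p = 0.418), none of which passed.

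Ccne1, cyclin E1, which takes over from cyclin D at the start of S phase, was at 0.204 to 0.378 CPM in Control mice, 0.697 to 1.31 in EIC mice, 0.523 to 1.64 in EIC + S60 mice, and 0.417 to 1.07 in EIC + S120 mice. Every mouse that received EIC was above every Control mouse. Of all genes, 1.98%, 2.07% and 2.79% were higher without overlap in EIC, EIC + S60 and EIC + S120 vs. Control. Counts were few, and the 0.204 CPM of Control 654 stands for 3 counts, so the folds are uncertain. Ccne1 rose by an LFC of 1.504 in EIC vs. Control (SE 0.28, adjusted p = 0.0165) and 1.44 in EIC + S60 vs. Control (SE 0.28, adjusted p = 0.0284). In EIC + S120 vs. Control the LFC of 0.85 did not pass (SE 0.28, adjusted p = 0.165). The call in EIC + S60 was lost in 9 of 27 alternatives, namely with only the 10 libraries compared and in the fits without Control 652, 653, 654 or 655 or without EIC + S60 71 or 74 (smallest LFC 1.14). Both calls were lost without the 2 deepest Control libraries (LFCs 1.70 and 1.63) and after thinning (1.54 and 1.30).

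Btg2, an antiproliferative early response gene, fell in EIC + S60 vs. Control from 21.9 to 36.1 CPM to 13.6 to 16.6 CPM (LFC −0.98, SE 0.22, adjusted p = 0.0230), and was no longer called without Control 653 or 655 or any 1 of EIC + S60 72 to 75 (smallest LFC −0.90). It was at 13.1 to 21.0 CPM in EIC, also below every Control mouse (2.03% of all genes lower without overlap), with an LFC of −0.77 vs. Control (adjusted p = 0.0522), and at 10.5 to 33.0 CPM in EIC + S120, with an LFC of 0.57 vs. EIC + S60 (adjusted p = 0.451). Rbl1, the pocket protein p107, fell in EIC + S120 vs. Control from 9.64 to 11.4 CPM to 7.09 to 8.81 CPM (LFC −0.41, SE 0.11, adjusted p = 0.0341), and was not called without Control 654 or 655, without EIC + S120 78, 79 or 80 (LFCs −0.40 to −0.36), without both deepest Control libraries or after thinning. Cdca3, a trigger of mitotic entry, fell in the same comparison from 0.774 to 1.24 CPM to 0.378 to 0.733 CPM (LFC −0.95, SE 0.24, adjusted p = 0.0444). It kept that call in 13 of 28 alternatives and lost it by DESeq2, by limma-voom, with no filter, with only the groups compared, after thinning, without both deepest Control libraries and without Control 652, 653 or 654, EIC 69, EIC + S60 72 or EIC + S120 77, 78, 80 or 81 (smallest LFC −0.85). The groups compared did not overlap for any of these 3 genes, where 1.74% of all genes were lower without overlap in EIC + S60 vs. Control and 3.02% in EIC + S120 vs. Control.

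**Figure D4:**
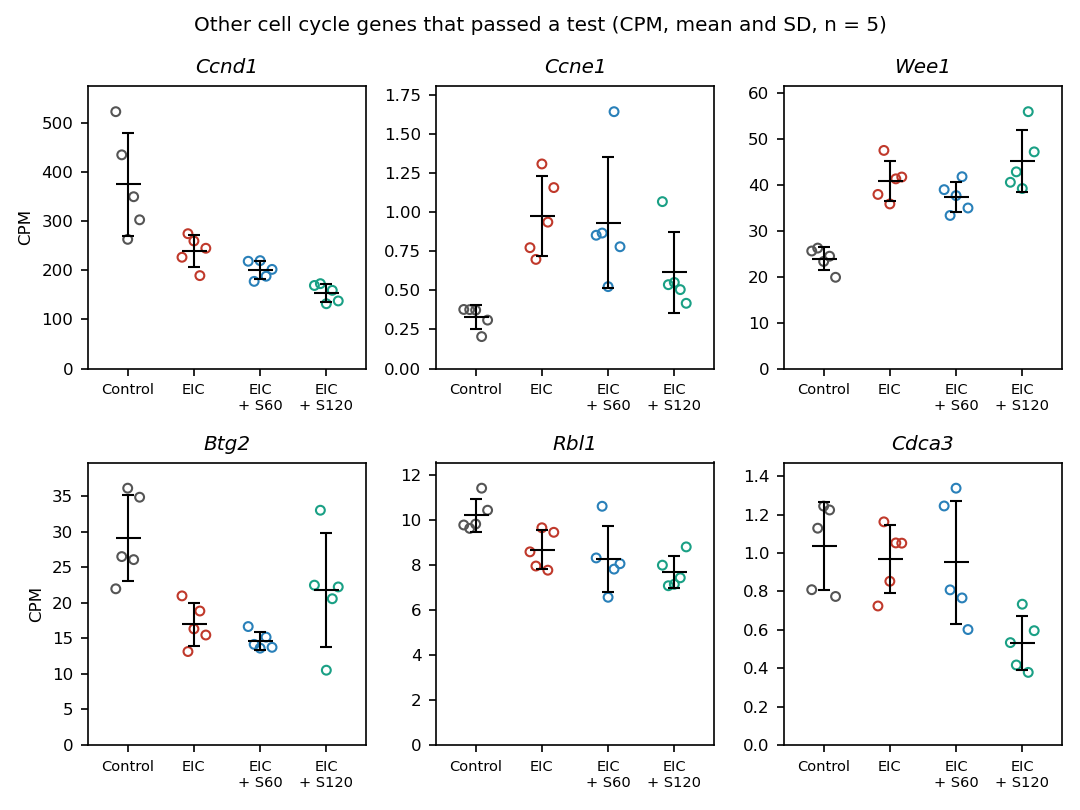
CPM (y axis, linear, from 0) in each mouse by group, with the mean and SD (n = 5), of the 6 further cell cycle genes that passed a test against Control. Wee1 and Ccne1 are above every Control mouse in all mice that received EIC, and Ccnd1 is at 523 and 435 CPM in Control 651 and 652 and at 132 to 173 CPM in EIC + S120.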

How the data were processed

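Per the submitters' processing notes, the authors used Trimmomatic 0.36 on reads of poly(A)-selected kidney RNA, STAR 2.5.2b with the genome GRCm38 and featureCounts from Subread 1.5.2. Each mouse gave 1 library, deposited as unscaled counts for each gene. Annotation and strand setting: not given in the sources used here. All listed genes had a count in EIC 65.

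In R 4.3.3, edgeR 4.0.16 fitted all 20 libraries (12662345 to 38651781 counts) with TMM scaling and 1 coefficient per group, by the robust quasi-likelihood method on genes with 10 counts in 5 libraries. Tests were two-sided, and adjusted p under 0.05 was called. SEs and 95% intervals came from limma 3.58.1 on log2 CPM (prior count 2), so they center on limma's estimate. Exon lengths, overlaps and loci came from GENCODE on GRCm38. Steps were tested on simulated data.

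Genes shown by mouse were Mki67, those called, and the 3 with the smallest p in each of EIC vs. Control, EIC + S60 vs. EIC and EIC + S120 vs. EIC. Values of Mcm6, Hells, Uhrf1, Cdt1 and Mcm7 were chosen after they were seen. From the further lists, genes called were shown, and of the other replication genes also Tk1 and Tipin, by smallest p. Members and lists were chosen with earlier results of these data known. Alternatives were RLE scaling, DESeq2 1.42.0, limma-voom, other filters, only the groups compared, thinning and libraries left out, and for the further lists these were added after the data were seen. Mouse numbers are shared by no groups. No source says that mice of a group came from separate litters or cages, so p-values set group differences against the spread between these mice only. The paper states that cages were not controlled for. It says both that mice were divided at random and that no randomization was done. An effect of cage could not be told apart from one of group.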

Additional observations from a re-analysis of the deposited data

Results flagged for a closer look

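In 56 groups of 5 mice (14 genes in 4 groups), 5 values stood apart from the rest of their group by the Dixon gap, of which chance gives about 1 in 20 groups. In EIC 67, Mcm5 was at 9.04 CPM against 5.47 CPM in the next mouse. Mki67 was at 2.73 CPM in the same library, with 1.05 CPM in the next, and Top2a was at 2.10 CPM, with 0.999 CPM in the next. Cdc20 was at 1.38 CPM in EIC + S60 71, with 0.808 CPM in the next mouse. Ccne1 was at 1.07 CPM in EIC + S120 77, with 0.550 CPM in the next.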

How the results depend on the processing

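The count of genes called in EIC vs. Control was 0 in the reported fit and 1 (Pcna) with RLE scaling, with DESeq2 and with a filter of 10 counts in 15 libraries, and it ranged from 0 to 1 when 1 library was left out. In EIC + S120 vs. Control it was 1, with 2 by DESeq2 (Mcm2 and Mcm6) and 0 with only the groups compared or after thinning. It ranged from 0 to 2 when 1 library was left out, with 0 without Control 653, 654 or 655 or EIC + S120 77, 79, 80 or 81 and 2 without EIC + S60 75. The test of any difference called 0, with 1 (Mcm2) by DESeq2 and 0 to 1 when 1 library was left out, with 1 without EIC 65. In the comparisons of sparsentan groups with EIC or with each other, and in EIC + S60 vs. Control, the count was 0 in every alternative run, including DESeq2 and limma-voom. The cause of these differences was not tested.

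Signs turned in 9 fits, each without 1 library and for a value that did not pass. Over the fits without 1 library, the LFC of EIC vs. Control spanned −0.10 (without EIC 66) to 0.020 (without EIC 65) for Mcm2, −0.031 (without Control 653) to 0.28 (without Control 652) for Cdc20, and −0.0054 (without EIC 67) to 0.69 (without EIC 65) for Mki67. That of EIC + S60 vs. EIC spanned −0.091 (without EIC + S60 72) to 0.66 (without EIC 67) for Mki67, also negative without EIC 65 (−0.035) and EIC 68 (−0.011), and −0.42 (without EIC + S60 72) to 0.10 (without EIC 67) for Top2a. For Cks2 the LFC of EIC + S120 vs. EIC spanned −0.0087 (without EIC + S120 79) to 0.15 (without EIC + S120 77), and for Pcna that of EIC + S120 vs. EIC + S60 spanned −0.015 (without EIC + S120 81) to 0.068 (without EIC + S120 79). Of the other fits for single genes, 1577 kept direction and side of the threshold, 53 lost a call and 11 gained one. No paired analysis was possible because the groups share no mouse numbers. Depth limits the mitotic genes most, 8 of which were below the filter.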
